A study of Mus musculus with 47 samples.

Results

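The cell proliferation genes described here are 56 genes whose products copy DNA, condense chromosomes and carry a cell through mitosis, taken by name from the array that the study used on mouse inguinal white adipose tissue (iWAT). A gene counted as a member when a non-control spot carried its symbol. Of the 27484 gene symbols on the array, 14432 had a probe bright enough to test, and 49 of the 56 members were among them. Anln, Cdc6, Chek1, E2f8, Hmmr, Kif11 and Kif2c were too dim and were not tested.

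The study asked what dietary beta-carotene (BC) does in iWAT with and without Bcmo1, the enzyme that cleaves BC to retinal. iWAT RNA of 47 mice was measured, each mouse on 1 two-colour array in Cy5 beside a Cy3-labelled pool of all samples. WT and Bcmo1-null mice of both sexes, all of mixed C57/BL6;129Svj background, received a diet with 1500 IU vitamin A per kg, either without BC (control diet) or with 150 mg BC per kg (BC diet). Feeding ran for 14 weeks, from 5 to 19 weeks of age. The paper describes this feeding for female mice, and its vitamin A, BC dose and times are taken to hold for the males. The 8 groups were WT female control, WT female BC, Bcmo1-null female control, Bcmo1-null female BC and the same 4 in males, with 6 mice each except 5 in WT male BC. The WT mice were an F1 of the mixed background and the Bcmo1-null mice carried the deletion throughout the body, so that genotype and breeding line cannot be told apart. Every value below is a log2 ratio of a mouse to the pool, called its level, or a log2 difference between groups of mice.

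A dividing cell licenses its replication origins with the MCM helicase, makes deoxynucleotides and copies its DNA in S phase, and then separates the chromosomes under cyclin B and mitotic kinases. In resting cells these genes are held down by E2F repressors with RB-family proteins and by the DREAM complex. E2F factors bind GC-rich sites of their own, and DREAM acts through the cell cycle genes homology region (CHR), often near CCAAT boxes bound by NF-Y. Mature adipocytes do not divide. Dividing cells in a fat pad can be adipocyte precursors, endothelium, immune cells, the lymphocytes of an embedded lymph node and, in females, the epithelium of the mammary gland.

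The promoters of 4 members with large differences below are shown as examples, chosen by hand, that hold the motifs searched. Each is the 300 bases from 250 before the RefSeq transcription start to 50 after it, 5′ to 3′ along the gene, in lower case. Capitals mark the CHR, searched as TTTGAA and in its variant form as TTCGAA. They also mark the box CCAAT and the E2F motifs TTTCCCGC, TTTGGCGC, TTTCGCGC and TTTCCCGG. Each was searched on both strands, and overlapping matches run together.
Mki67, GRCm38.p6 chr7:135716330-135716629, minus strand: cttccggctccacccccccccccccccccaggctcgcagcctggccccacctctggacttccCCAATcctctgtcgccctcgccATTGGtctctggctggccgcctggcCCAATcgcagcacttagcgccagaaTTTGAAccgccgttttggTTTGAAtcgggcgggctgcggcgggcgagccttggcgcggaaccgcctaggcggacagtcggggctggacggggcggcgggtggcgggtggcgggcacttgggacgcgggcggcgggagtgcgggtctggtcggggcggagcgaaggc
Top2a, GRCm38.p6 chr11:99024140-99024439, minus strand: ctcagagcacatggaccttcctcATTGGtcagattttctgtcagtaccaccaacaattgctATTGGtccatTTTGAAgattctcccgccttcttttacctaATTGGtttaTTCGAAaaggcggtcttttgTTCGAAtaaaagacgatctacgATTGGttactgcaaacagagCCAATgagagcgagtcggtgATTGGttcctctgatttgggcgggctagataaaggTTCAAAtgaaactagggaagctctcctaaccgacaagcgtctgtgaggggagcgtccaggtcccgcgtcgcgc
Mcm5, GRCm38.p6 chr8:75109259-75109558, plus strand: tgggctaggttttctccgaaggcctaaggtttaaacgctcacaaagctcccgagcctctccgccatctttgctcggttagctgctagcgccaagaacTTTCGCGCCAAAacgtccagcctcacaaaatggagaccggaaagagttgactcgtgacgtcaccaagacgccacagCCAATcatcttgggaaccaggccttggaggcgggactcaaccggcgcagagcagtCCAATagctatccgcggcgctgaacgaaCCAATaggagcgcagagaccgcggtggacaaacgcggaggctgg
Mcm6, GRCm38.p6 chr1:128359656-128359955, minus strand: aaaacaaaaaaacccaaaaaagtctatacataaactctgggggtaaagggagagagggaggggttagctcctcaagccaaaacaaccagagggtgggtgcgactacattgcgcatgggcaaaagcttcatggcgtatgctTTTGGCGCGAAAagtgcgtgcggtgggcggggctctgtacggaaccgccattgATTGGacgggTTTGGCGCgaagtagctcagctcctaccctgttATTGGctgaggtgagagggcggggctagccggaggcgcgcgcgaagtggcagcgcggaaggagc
Mki67, which encodes the Ki-67 protein that coats mitotic chromosomes, and Top2a, the DNA topoisomerase that untangles them, held CHR and CCAAT motifs and no E2F motif. Mcm5 and Mcm6, subunits of the replicative helicase, held E2F and CCAAT motifs and no CHR. In Mcm5 the E2F match began 153 bases before the start and was read again on the other strand 4 bases on, so that it is 1 stretch of sequence. The 49 members with a promoter entry are not the 49 tested genes. They include the 7 dim members, whereas the tested Mcm4, Foxm1, Ccna2, Aurkb, Kif20a, Tpx2 and Stmn1 had no entry. Counts by role therefore cover other genes here than in the comparisons below. Of the 49 members with a promoter entry, 29 held a CHR (59.2%), against 19.4% of the 27025 genes with an entry. A CCAAT motif stood in 34 (69.4%, against 37.9%), and both CHR and CCAAT in 25 (51.0%, against 7.70%). E2F motifs stood in 7 (14.3%, against 3.15%), and 40 held any of the motifs (81.6%, against 51.3%). By role, CHR stood in 7 of 8 spindle motor and microtubule genes and 5 of 6 chromosome condensation genes but in 3 of 9 licensing and replication genes, whereas E2F motifs stood in 5 of those 9. These counts read the start listed first for each gene. Another of the 3 starts listed for Lig1 also held an E2F motif, which makes 6 of those 9 and 8 of the 49 (16.3%, against 3.53% of genes at any start). A match is a description of letters in this window and not of binding.

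On the files' older build, mm8, the probe for Mki67 lay at chr7:135528251-135528310, that for Top2a at chr11:98812020-98812834, that for Mcm5 at chr8:78023523-78023583 and that for Mcm6 at chr1:130159147-130159206. Signal over background sets how precisely a member was measured and does not rank transcripts by abundance. Pcna, the sliding clamp of DNA polymerase, was brightest at 251 times its local background in Cy5, and Mki67 stood at 47.0 and Top2a at 3.99 times. Among the tested members, 42 of 49 passed the brightness filter in each of the 8 groups taken alone. The others, Foxm1, Bub1b, Aurkb, Nek2, Bub1, Top2a and Spag5, passed it in 5 to 7 groups, and no member was saturated or without an array well above background in any group.

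The arrays differed in what tissue they held, and these facts stand beside the results that they touch. Krt8, a keratin of glandular epithelium, lay between -0.14 and 1.95 on 23 of 24 female arrays and at -2.93 on Bcmo1-null female control replicate 1, whereas the male arrays lay between -5.19 and -4.24. Cd79b, a subunit of the B cell receptor, split each sex at a gap. Of the female arrays 8 lay at -2.57 or below and 16 at -0.83 or above, and of the male arrays 8 lay at -3.48 or below and 15 at -1.79 or above. The arrays below the gap were 2 WT female control, 1 WT female BC (replicate 5), 3 Bcmo1-null female control, 2 Bcmo1-null female BC, 3 WT male control, 4 of 5 WT male BC, 0 Bcmo1-null male control and 1 Bcmo1-null male BC (replicate 1). All 7 tested adipocyte markers were well above background on each of the 47 arrays. The 1 Bcmo1 probe was not bright enough to test and was well above background on 15 arrays, of WT and Bcmo1-null mice alike, with ratios from -0.25 to 0.47, so it checks no genotype label. In whole tissue, fewer cells of a type and less RNA per cell cannot be told apart. Arrays lay on 12 slides, of which 4 held both sexes.

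**Figure D1:**
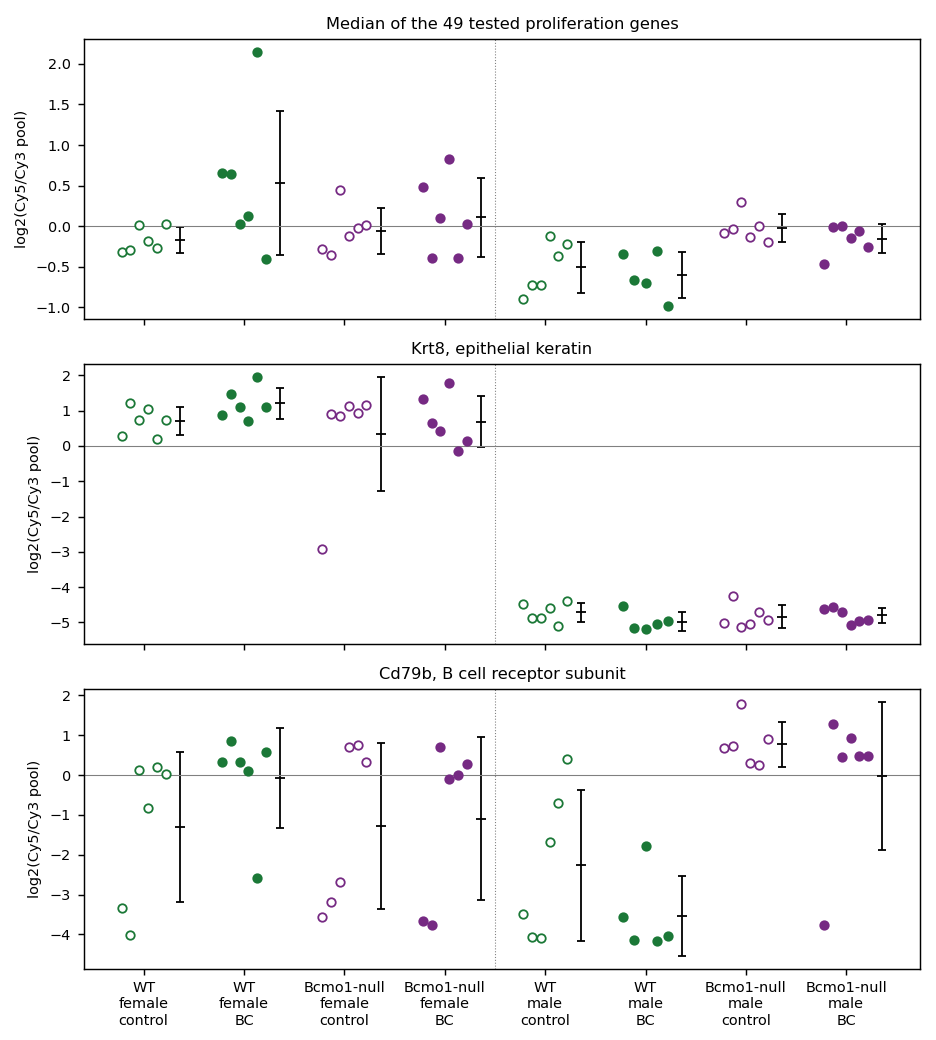
Each point is 1 array, the tick its group mean and the bars 1 SD, all as log2 ratio to the pool. The top panel gives the median of the 49 tested proliferation genes, in which WT female BC replicate 5 stands at 2.15 and the WT male groups lie below 0. The lower panels give Krt8, far lower in males, and Cd79b, which falls into a high and a low cluster of arrays.

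The proliferation genes moved as a block from mouse to mouse. Over pairs of the 49 tested genes, the correlation across arrays had a median of 0.88 in the 24 females and 0.83 in the 23 males, with 1080 and 948 of 1176 pairs above 0.5. These are descriptions, since all ratios share the pool and each array's tissue content. A few genes stood apart. Ccne1, the cyclin E that acts at the G1/S boundary, correlated at 0.26 with the median of the other members in both sexes. E2f1, an activating E2F factor, correlated at 0.37 in females and -0.34 in males, and Foxm1, a transcription factor of mitotic genes, at -0.01 in males. Ube2c, an ubiquitin-conjugating enzyme of the anaphase-promoting complex, stood at 0.10 and Aurka, a centrosomal kinase, at 0.29 in males. The genes closest to the rest were Cdca3, a trigger of mitotic entry, at 0.99 in females and Ccna2, the S and G2 phase cyclin A, at 0.99 in males.

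Taken as the array's median over the 49 genes, the level was highest in WT females on BC and lowest in WT males. WT female control arrays ran from -0.32 to 0.03 with a median of -0.23, and WT female BC arrays from -0.41 to 2.15 with a median of 0.38. Bcmo1-null females ran from -0.35 to 0.44 (median -0.08) on the control diet and from -0.39 to 0.83 (median 0.06) on BC. The 4 female groups overlapped. WT males ran from -0.90 to -0.12 (median -0.54) on the control diet and from -0.98 to -0.31 (median -0.67) on BC, and Bcmo1-null males from -0.20 to 0.29 (median -0.06) and from -0.46 to 0.005 (median -0.10). On WT female BC replicate 5 all 49 genes lay above the pool, and that array also had the highest Krt8 of the series, 1.95, and a Cd79b of -2.57.

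**Figure D2:**
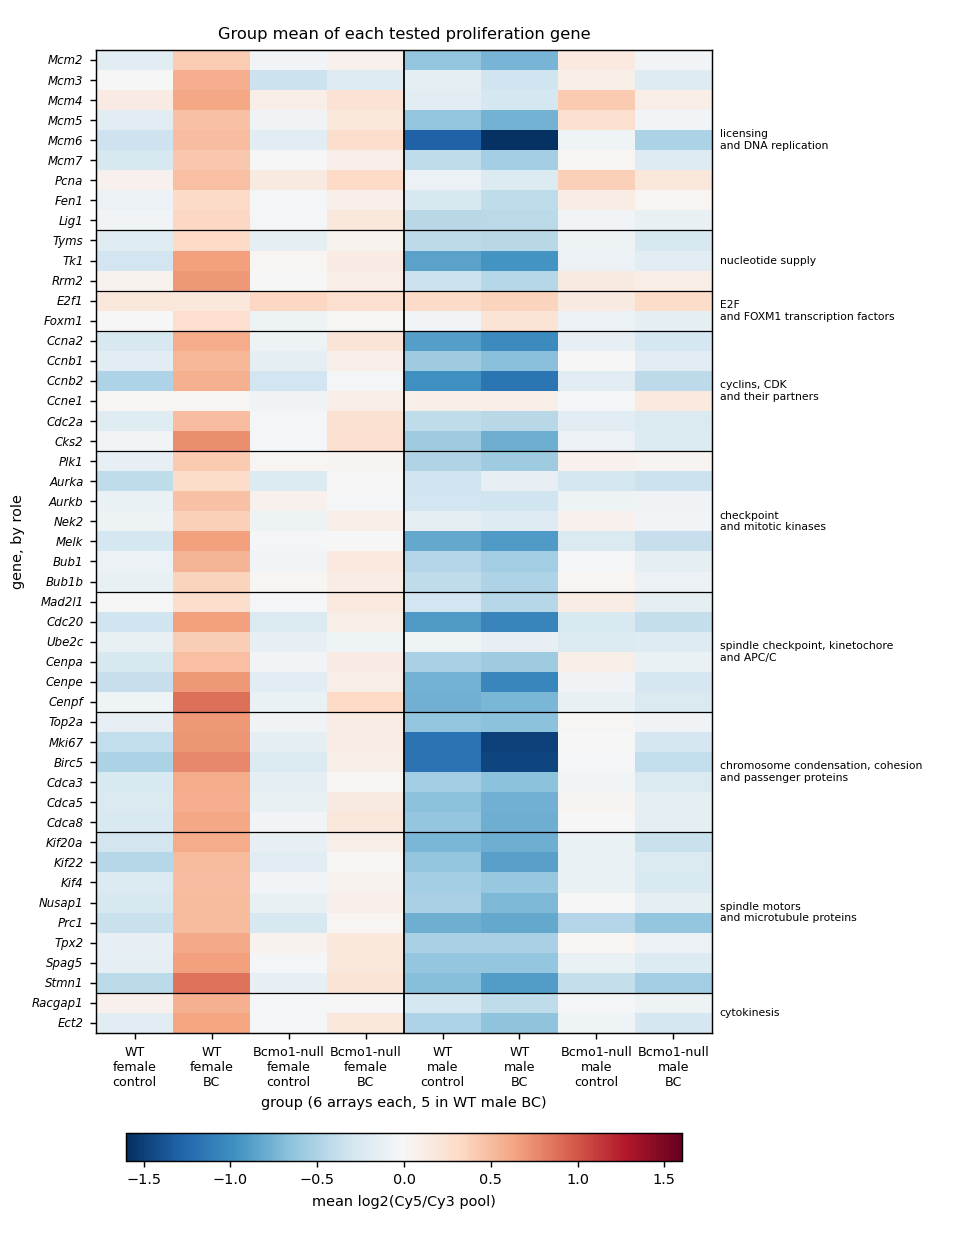
Rows are the 49 tested genes ordered by role, columns the 8 groups, and colour the group mean as log2 ratio to the pool (red above, blue below). Nearly every row is reddest in WT female BC and bluest in the WT male groups, most of all Mcm6, Mki67 and Birc5, whereas E2f1, Foxm1 and Ccne1 stay pale.

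The 6 genes Mki67, Top2a, Ccnb1, Mcm5, Pcna and Tyms, which stand for the stages of the cycle, were followed through all 8 groups. Mki67 had a mean of -0.40 ± 0.69 (SD, n = 6) in WT female control and 0.71 ± 1.15 (n = 6) in WT female BC, with arrays from -1.40 to 0.36 and from -0.59 to 2.61. In Bcmo1-null females its means were -0.15 ± 0.59 and 0.12 ± 0.74 (n = 6 each). In males it was -1.18 ± 0.83 (n = 6) and -1.49 ± 0.42 (n = 5) in WT on control and BC diet, whereas the 6 Bcmo1-null controls ran from -0.21 to 0.66 and the Bcmo1-null BC mean was -0.27 ± 0.64. Its Bcmo1-null BC arrays lay between -0.16 and 0.09 except replicate 1 at -1.57, an array on the low side of the Cd79b gap.

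Top2a followed the same order at a smaller scale. Its WT female means were -0.13 ± 0.21 on control and 0.69 ± 0.70 on BC diet, and its WT male means -0.63 ± 0.32 (n = 6) and -0.66 ± 0.20 (n = 5). Bcmo1-null means lay between -0.06 and 0.12, with n = 5 in the female control group, where 1 spot was faulty. Mcm5 had means of -0.18 ± 0.22 and 0.47 ± 0.44 in WT females and -0.63 ± 0.42 and -0.75 ± 0.27 in WT males on control and BC diet. Its Bcmo1-null male control mean, 0.25 ± 0.22, exceeded every WT male array, the highest of which was -0.14.

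Ccnb1, the B-type cyclin that drives entry into mitosis, rested on 1 array in WT female BC. There its arrays ran from -0.41 to 2.68 with a median of 0.17, and the next highest after replicate 5 was 0.67. Pcna had WT female means of 0.07 ± 0.26 and 0.48 ± 0.26, WT male means of -0.09 ± 0.16 and -0.22 ± 0.03, and Bcmo1-null male means of 0.38 ± 0.19 and 0.18 ± 0.21. Tyms, thymidylate synthase, had WT female means of -0.19 ± 0.12 and 0.31 ± 0.60, the latter with 1.49 on replicate 5. In WT males Tyms stood at -0.42 ± 0.14 and -0.44 ± 0.28, and in Bcmo1-null males at -0.08 ± 0.15 and -0.25 ± 0.17. Within a sex, the control and BC groups of each of the 6 genes overlapped.

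**Figure D3:**
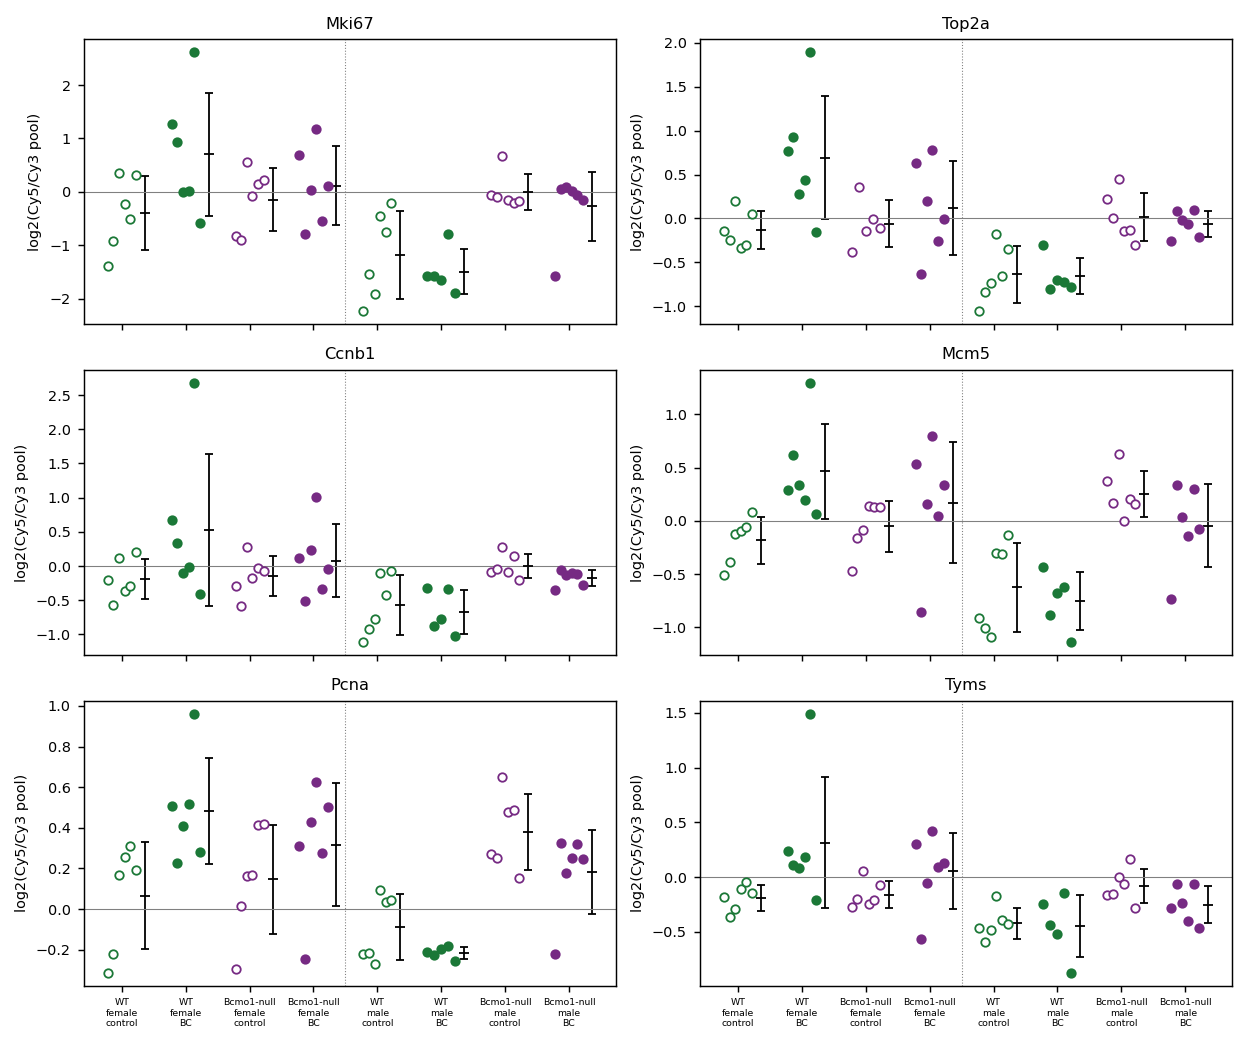
Each panel is 1 gene, and each point 1 array as log2 ratio to the pool, with the group mean and 1 SD beside the points (6 arrays a group, 5 in WT male BC and in Bcmo1-null female control for Top2a). WT female BC replicate 5 is the top point of every panel, and most Bcmo1-null male points lie above most WT male points.

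In WT females most of the genes were higher on BC, but none passed the test within females. The median difference of BC over control diet was 0.72 over the 49 genes, against -0.003 over all probes, and 47 of 49 were higher on BC. By limma with Benjamini-Hochberg adjustment over all 20718 probes, 0 genes passed, and the lowest adjusted p was 0.061, for Mcm7 with a difference of 0.70. In 1 fit of all 47 arrays 15 genes passed, but there both sexes share the estimate of the spread. The array median of the members had a pooled SD within groups of 0.53 in females and 0.24 in males. Over all arrays that SD was 0.42, smaller than that of the females compared here. By the methods' t-test fewer genes were higher at an unadjusted p under 0.05 than in the fit of females. In that fit 41 of 49 genes were higher at this threshold, where 8.79% of all probes were, and 9 had an unadjusted p under 0.01. Genes that missed the unadjusted threshold were Ccnb1, Racgap1, Nek2, Ube2c, Foxm1, Mad2l1, E2f1 and Ccne1.

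The largest differences at an unadjusted p under 0.01 were in a passenger protein, a nucleotide enzyme and a topoisomerase. Birc5, the survivin subunit of the chromosomal passenger complex, ran from -1.64 to -0.05 in WT female control and from -0.74 to 2.87 on BC, a difference of 1.28 ± 0.44 (SE, limma adjusted p = 0.099). Tk1, thymidine kinase, ran from -0.74 to 0.05 and from -0.29 to 1.96, a difference of 0.96 ± 0.28 (limma adjusted p = 0.072). Top2a differed by 0.82 ± 0.26 (limma adjusted p = 0.086). In each, the BC group reached higher and the groups overlapped. By role, all 9 licensing and replication genes, 3 of 3 nucleotide enzymes, 6 of 6 condensation genes and 8 of 8 spindle motor and microtubule genes were higher at the unadjusted threshold, as were 6 of 7 kinases, 4 of 6 cyclin and CDK genes, 4 of 6 spindle checkpoint genes and 1 of 2 cytokinesis genes. Neither E2f1 nor Foxm1 was.

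Marker genes of other cells differed in this comparison without passing the test. Of the 16 mammary epithelium markers 15 were higher on BC with a median difference of 0.39, and of the 16 lymphocyte markers 16 were higher with a median of 0.77, with 0 passing in either list. Skeletal muscle markers had the largest median of these lists, 0.87, with 6 of 6 higher and 0 passing. The 7 adipocyte markers were lower, with a median of -0.52 and 0 passing. With Krt8 and Cd79b of each array as covariates, the median over the 49 genes was 0.65 and 34 were higher at the unadjusted threshold. Within slides, the median difference was higher on BC on 4 of 5 slides and ran from -0.38 to 2.50. Without WT female BC replicate 5 the median was 0.43 with 15 genes at the unadjusted threshold, and without WT female BC replicate 6 it was 0.90 with 45, of which 7 passed after adjustment.

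In the other 3 groups of mice the diet comparison gave small differences. In Bcmo1-null females the median difference was 0.19, with 0 of 49 passing and 0 at the unadjusted threshold, where 2.47% of all probes were. In WT males the median was -0.11, with 0 passing and 1 at the unadjusted threshold (background 1.94%), Foxm1, at 0.26 higher on BC. In Bcmo1-null males the median was -0.14, with 0 passing and 3 at the unadjusted threshold (background 3.48%): Mcm4 at -0.31, Mcm7 at -0.24 and Pcna at -0.20, parts of the helicase and the clamp. Those genes were singled out after their values were seen.

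Between genotypes in females, 1 gene passed, on BC. On the control diet Bcmo1-null females had a median difference of 0.14 over WT, with 0 passing and 0 at the unadjusted threshold, where 10.4% of all probes were. On BC the median was -0.44, with 5 genes lower at the unadjusted threshold against 9.07% of probes: Mcm3, Mcm4, Rrm2, Top2a and Racgap1. Mcm3, a helicase subunit, was the 1 gene that passed, where 1.79% of all probes were lower. Both counts, 5 and 1 of 49, were near the share of all probes. It ran from 0.13 to 1.17 in WT and from -0.85 to 0.22 in Bcmo1-null females on BC, and fell by 0.79 ± 0.18 (SE, limma adjusted p = 0.014). WT female BC replicate 5 carried much of the list's shift, since the median without it was -0.09, whereas Mcm3 passed with each array left out in turn. The call did not hold with median centring or by the methods' t-test. The dimmer of its 2 kept probes gave -0.29, and on the control diet the 2 probes gave -0.35 and 0.12. Beside these, 15 of 16 mammary epithelium markers were lower in Bcmo1-null females on BC (median -0.51), as were 16 of 16 lymphocyte markers (median -0.61), and 6 of 6 skeletal muscle markers were higher (median 0.76), with 0 passing in each list.

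In males the genotype comparison gave the most calls of any comparison within a sex. On the control diet 36 of 49 genes were higher in Bcmo1-null males, where 17.4% of all probes were, 0 were lower, and the median difference was 0.51. Mcm6 ran from -1.76 to -0.77 in WT and from -0.40 to 0.39 in Bcmo1-null males and rose by 1.23 ± 0.23 (SE, limma adjusted p = 0.00062), with no overlap. Mcm5 rose by 0.88 ± 0.19 (limma adjusted p = 0.0016) and Mcm2, from -1.24 to -0.07 in WT and from -0.05 to 0.59 in Bcmo1-null males, by 0.79 ± 0.18 (limma adjusted p = 0.0023). The groups did not overlap, with Bcmo1-null males higher, in 8 of 49 genes, where they did not in 5.96% of all probes. These were the replication genes Mcm2, Mcm4, Mcm5, Mcm6, Mcm7, Pcna and Lig1, and Bub1b, a spindle checkpoint kinase. Bub1b was dim, well above background on 4 of 6 WT male control arrays.

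Mitotic genes rose as well. Mki67 rose by 1.18 ± 0.32 (limma adjusted p = 0.0089), with WT arrays from -2.24 to -0.20 and the Bcmo1-null arrays at -0.21 or above. Birc5 rose by 1.15 ± 0.35 (limma adjusted p = 0.016) and Ccnb2, a B-type cyclin, by 0.81 ± 0.24 (limma adjusted p = 0.015), and in both the groups overlapped. By role, 8 of 9 licensing and replication genes, 3 of 3 nucleotide enzymes, 6 of 6 condensation genes, 6 of 8 spindle motor and microtubule genes and 5 of 6 spindle checkpoint genes rose, as did 4 of 7 kinases, 3 of 6 cyclin and CDK genes and 1 of 2 cytokinesis genes. The 13 that did not pass were Mcm3, E2f1, Foxm1, Ccne1, Cdc2a, Cks2, Aurka, Aurkb, Nek2, Ube2c, Prc1, Stmn1 and Racgap1.

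On BC, 27 of 49 genes were higher in Bcmo1-null males, where 16.0% of all probes were, with a median of 0.42. Of the 36 genes called on the control diet 26 were called again, 72.2% of those and 96.3% of the 27. Mki67 ran from -1.90 to -0.78 in WT and rose by 1.22 ± 0.34 (SE, limma adjusted p = 0.010). Mcm6 ran from -1.90 to -1.34 in WT and from -1.69 to -0.13 in Bcmo1-null males and rose by 1.06 ± 0.24 (limma adjusted p = 0.0026). Replicate 1, low in Cd79b, was again the Bcmo1-null array that lay among the WT arrays. Birc5 rose by 1.07 ± 0.36 (limma adjusted p = 0.031), Tk1 by 0.79 ± 0.23 (limma adjusted p = 0.013), Cenpe, a kinetochore motor, by 0.77 ± 0.23 (limma adjusted p = 0.017) and Ccnb2 by 0.74 ± 0.26 (limma adjusted p = 0.034). Foxm1 was the 1 gene that fell, by 0.37 ± 0.12 (limma adjusted p = 0.022), and no share of all probes that fell stands beside it. Its probe was dim, at 3.67 times background in Cy5, and passed the brightness filter in 5 groups. This 1 call is therefore not read as a result about the members. The groups did not overlap in 3 genes, Fen1, Top2a and Racgap1, a share near the 6.28% of all probes. In WT male BC taken alone 45 of the 49 tested genes passed the brightness filter. There Top2a, Bub1 and Spag5 were each well above background on 1 of 5 arrays and Bub1b on 2. Their values in that group lie near the floor, so the size of a difference from it is uncertain.

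Lymphocyte markers moved with genotype in males on a larger scale. On the control diet 15 of 16 lymphocyte markers were higher in Bcmo1-null males with a median difference of 2.51, Cd79b by 3.04 (limma adjusted p = 0.0064), and the per-array median of the list ran from -3.11 to 0.32 in WT and from 0.53 to 1.43 in Bcmo1-null males. On BC 16 of 16 were higher with a median of 2.77, Cd79b by 3.51 (limma adjusted p = 0.0037), and the list ran from -3.27 to -1.39 in WT and from -2.42 to 0.99 in Bcmo1-null males. Macrophage markers were higher in 5 of 8 on each diet. Of all probes 17.4% were higher on the control diet and 16.0% on BC. The per-array median of the adipocyte markers ran from 0.51 to 0.98 in WT and from -0.29 to 0.32 in Bcmo1-null males on the control diet. On BC it ran from 0.50 to 0.86 in WT and from -0.16 to 0.39 in Bcmo1-null males. None of the 16 mammary epithelium markers and none of the 6 skeletal muscle markers passed in males, the latter with medians of -1.35 on the control diet and -1.79 on BC. With Krt8 and Cd79b as covariates, 0 of the 49 genes passed on either diet, and the median fell from 0.51 to 0.18 on the control diet and from 0.42 to 0.035 on BC. Cd79b itself differed between the genotypes in males, so this fit cannot tell lymphocyte signal and genotype apart. Within slides the median ran from -0.01 to 0.73 on the control diet, higher on 2 of 4 slides, and from 0.14 to 0.61 on BC, higher on 5 of 5. With slide as a block 10 genes passed on the control diet.

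**Figure D4:**
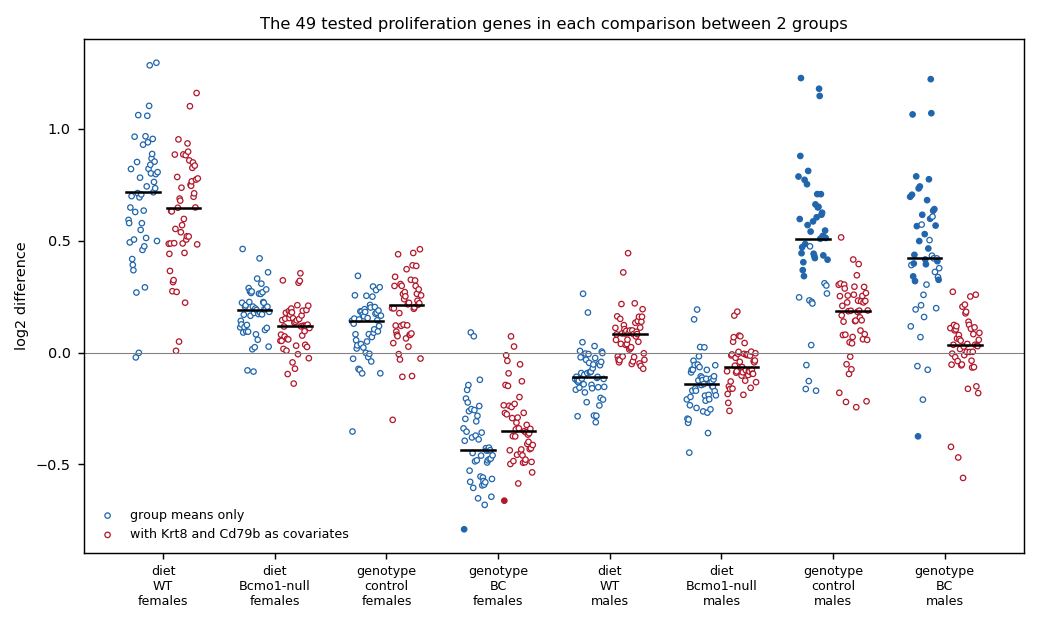
Each point is 1 of the 49 tested genes in 1 of 8 comparisons, on the y axis the log2 difference (BC minus control diet, or Bcmo1-null minus WT), and the line the median. Blue points come from group means alone and red points from the fit with Krt8 and Cd79b as covariates, and filled points passed the adjusted threshold. The blue medians of 0.51 and 0.42 for genotype in males drop to 0.18 and 0.035 in red, while that of diet in WT females goes from 0.72 to 0.65. Cd79b differed between the genotypes in males, so the drop there cannot tell lymphocyte signal and genotype apart.

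Between the sexes, 42 of 49 genes were higher in females, where 26.0% of all probes were, with a median difference of 0.42 over the 4 combinations of genotype and diet. Mcm6 differed most, by 0.93 ± 0.13 (SE, limma adjusted p = 1.8e-07), followed by Mki67 at 0.81 ± 0.20 (limma adjusted p = 0.00099) and Birc5 at 0.81 ± 0.21 (limma adjusted p = 0.0011). Stmn1, a microtubule destabiliser, differed by 0.76, Cenpf, a kinetochore protein, by 0.72 and Cdc20, an activator of the anaphase-promoting complex, by 0.70. All spindle motor, condensation, nucleotide and cytokinesis genes passed. The 7 that did not were Mcm3, E2f1, Foxm1, Ccne1, Aurka, Nek2 and Ube2c. The average over the 4 combinations was not spread evenly. On control and BC diet the array medians had means of -0.17 and 0.53 in WT females against -0.51 and -0.60 in WT males. In Bcmo1-null mice they were -0.06 and 0.11 in females against -0.03 and -0.16 in males. Whether the sex difference depends on genotype was not tested.

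All 16 mammary epithelium markers were higher in females, with a median difference of 3.58 and Krt8 at 5.56, whereas 0 of 16 lymphocyte markers differed. Skeletal muscle markers were lower in females with a median difference of -1.97, and adipocyte markers with a median of -0.52. Krt8 does not overlap between the sexes, so the fit with Krt8 and Cd79b as covariates compares the sexes at Krt8 levels that no array had. It gave 0 genes passing and a median of -0.78. With slide as a block, where 4 of 12 slides hold both sexes, Lig1, the ligase that joins replicated strands, and Mcm6 were the 2 genes that passed.

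The differences between diet effects were tested directly. In females the diet effect was larger in WT than in Bcmo1-null mice by a median of 0.53, but 0 of 49 genes passed and Mcm7 (0.61) and Tk1 (0.87) alone reached the unadjusted threshold, where 9.66% of all probes did. In males 0 passed and 0 reached it (background 1.37%). Between the sexes in WT mice the diet effect was larger in females by a median of 0.80. There 0 genes passed, the lowest adjusted p being 0.051 for Mcm7, and 36 were higher at the unadjusted threshold, where 10.1% of probes were.

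Stmn1 showed the largest such difference among genes with an unadjusted p under 0.01, 1.51 ± 0.54 (SE, limma adjusted p = 0.0995). Kif22, a chromosome-binding kinesin, differed by 1.19 ± 0.41 (limma adjusted p = 0.090) and Mcm6 by 1.11 ± 0.38 (limma adjusted p = 0.092). Without WT female BC replicate 5, 15 genes reached the unadjusted threshold, and without WT female BC replicate 6, 9 passed after adjustment. In Bcmo1-null mice 0 passed and Mcm6 alone reached the unadjusted threshold, at 0.91 (background 3.18%).

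The next question was how the genes ran with epithelial and lymphocyte signal from array to array. In females most ran in the direction of Krt8. Over the 24 arrays 48 of 49 genes had a positive Pearson r with Krt8, with a median of 0.46. Mcm6 had r = 0.70 and Spearman rho = 0.61 (permutation p = 6e-05 for r, adjusted p = 0.0035 for r and 0.10 for rho over 294 relations), and r = 0.53 without the 2 arrays farthest from the median of Krt8. For Mcm4 r was 0.65 and rho 0.58 (permutation, adjusted p = 0.013 and 0.13), with r = 0.57 without the 2 arrays. Top2a had r = 0.62 and rho = 0.42 over 23 arrays (permutation, adjusted p = 0.034 and 0.22), with r = 0.44 without them. The lowest were Ccne1 at -0.13 and E2f1 at 0.15. By r 3 genes passed the adjusted threshold, and by rho 0.

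Once group means and Cd79b were in the fit, 2 genes passed for Krt8 in females, a share near the 3.08% of probes that did. They were Mcm6, with 0.41 ± 0.08 per unit of log2 Krt8 (SE, limma adjusted p = 0.0088), and Mcm7, with 0.23 ± 0.06 (limma adjusted p = 0.045). The median coefficient was 0.24, and 25 genes were higher at the unadjusted threshold, where 10.6% of probes were. Single arrays moved these counts. Without Bcmo1-null female control replicate 1, whose Krt8 stands apart, 0 genes passed and 46 reached the unadjusted threshold, while without Bcmo1-null female BC replicate 4 that number was 7. In males, whose Krt8 spans a narrow range, the median r was 0.07 and 0 relations passed. The highest were Aurka at 0.43, Melk, a mitotic kinase, at 0.23 and Kif4, a chromokinesin, at 0.20, and the lowest E2f1 at -0.46 and Stmn1 at -0.13. In the fit 0 passed, and Aurka at 0.71 ± 0.22 (limma adjusted p = 0.22) and E2f1 at -0.28 reached the unadjusted threshold, as 9.20% of probes did.

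**Figure D5:**
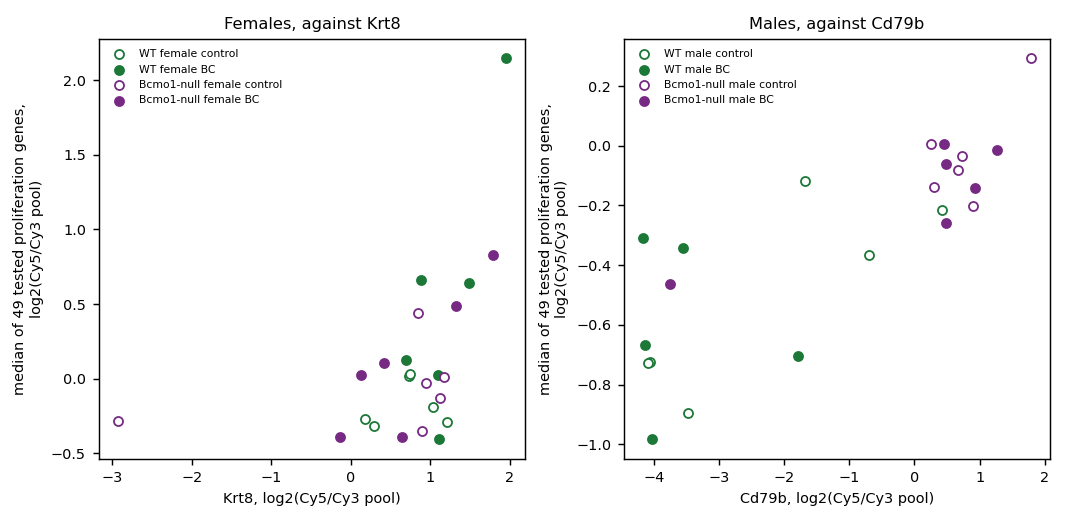
Each point is 1 array, on the y axis the median of the 49 tested genes and on the x axis Krt8 in females (left) or Cd79b in males (right), all as log2 ratio to the pool, with colour for genotype and filling for diet. In females the points at the highest Krt8, 1.78 and 1.95, are the highest in the genes, and 1 array stands alone at -2.93. In males the high cluster of Cd79b holds mostly Bcmo1-null arrays.

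Cd79b was related to the genes in males. Because the arrays fell into clusters, r was taken on each side of the gap. Above it, over 15 male arrays, the median r was 0.66, 44 of 49 genes were positive and 16 passed by r, and 0 by rho. Mcm2 had r = 0.87 and rho = 0.70 (permutation, adjusted p = 0.0042 and 0.14), and r = 0.87 without the 2 farthest arrays. For Mki67 r was 0.86 and rho 0.81 (permutation, adjusted p = 0.0035 and 0.075), and r = 0.91 without them. Mcm7 had r = 0.86 and rho = 0.63 (permutation, adjusted p = 0.0035 and 0.18), and r = 0.72 without them. The lowest were Foxm1 at -0.47 and Ccne1 at -0.18. Of those 15 arrays 11 were Bcmo1-null, and centred on the group means the median r was 0.22. Below the gap, over 8 male arrays, it was -0.01 and 0 passed.

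In the fit with group means and Krt8, 24 of 49 genes rose with Cd79b in males, where 8.36% of probes did. The slope takes in both clusters of Cd79b and so includes the step between them. Centred on group means, the median r was 0.02 below the gap and 0.22 above it. A graded relation within a cluster is therefore not shown by the slope. Per unit of log2 Cd79b, Mki67 rose by 0.32 ± 0.06 (SE, limma adjusted p = 0.00036), Birc5 by 0.32 ± 0.07 (limma adjusted p = 0.0020), Mcm6 by 0.23 ± 0.04 (limma adjusted p = 0.00020) and Ccnb2 by 0.21 ± 0.05 (limma adjusted p = 0.010). Mcm5 rose by 0.19 ± 0.03 (limma adjusted p = 7.5e-05) and Ccna2 by 0.18 ± 0.05 (limma adjusted p = 0.024). Without Bcmo1-null male BC replicate 1, 7 genes passed.

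In females the relation with Cd79b was weaker in these counts, and the difference between the sexes was not tested. The median r was 0.12 over the 16 arrays above the gap. It was 0.66 over the 8 below, led by Aurkb, Tk1 and Tpx2 and lowest for Ccne1 and Mcm4, but -0.18 without the 2 farthest arrays, so that it rests on those. In the fit 0 genes passed, and Pcna at 0.07 and E2f1 at -0.05 reached the unadjusted threshold, where 29.3% of probes did.

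Other genes of the cell cycle, listed by their known roles, showed which steps moved besides the members. Of 81 tested further S and M phase genes, 42 were higher at the unadjusted threshold on BC in WT females, where 8.79% of all probes were. Of these 81, 0 passed, and the median was 0.41. In Bcmo1-null males on the control diet 41 were higher than in WT, where 17.4% of all probes were, and 2 lower (median 0.31). On BC 32 were higher, where 16.0% of all probes were, and 2 lower (median 0.30). Between the sexes 51 were higher in females, where 26.0% of all probes were, and 5 lower (median 0.27). The counts of lower genes have no share of all probes beside them and are not read as results. Among the 6 G1 cyclins and kinases, which act before replication starts, Cdk4, Cdk6 and Myc were higher in Bcmo1-null males on both diets. Cdk4, a cyclin D kinase, differed by 0.38 on the control diet and 0.47 on BC, and Myc, a growth transcription factor, by 0.61 on each. Both also passed between the sexes, as did Ccnd1, cyclin D1, at 1.12 higher in females.

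Genes that restrain the cycle did not move as a block. Of 14 CDK inhibitors, pocket proteins and quiescence genes, Cdkn1b, Rbl1 and Rbl2 rose and Rb1 fell in Bcmo1-null males on the control diet (median -0.01). On BC, Cdkn1b, Cdkn2d and Rbl2 rose (median -0.03). The 3 of 14 that rose on each diet are near the share of all probes that rose, 17.4% on the control diet and 16.0% on BC. Cdkn1b, the CDK inhibitor p27, rose by 0.78 on the control diet and 0.81 on BC. Between the sexes 3 of 14 were higher in females, near the 26.0% of all probes that were, and 7 were lower, with a median of -0.21. No share of all probes stands beside the counts of genes that were lower, so those counts are not read as results about the list.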

How the data were processed

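The 47 iWAT RNA samples were each hybridised once, in Cy5, against a Cy3 pool of all samples on Agilent whole mouse genome arrays with no dye swap, so that probe-specific dye bias stays in every ratio to the pool but cancels between groups. The authors scanned the arrays and extracted spots with Feature Extraction 9.5.3.1 per the file headers. The deposited scanner files hold the intensity of each spot and its local background in both channels. The deposited table of log10 ratios equalled the scanner files' log10 ratio for 100% of features (tolerance 1e-08), with an array median of 0, so its scale and direction (Cy5 over Cy3) are known. Other deposited columns hold flags and probe names. The study's own processing of the ratios, with its normalization, is not repeated in these values.

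Median signals were background-corrected (normexp, offset 50) and loess-normalized within arrays, 1639 control features at weight 0, and 10902 faulty spots over all arrays were set aside, which left 1812 missing values among kept probes. Spots of a probe were averaged, and 20718 of 41174 probes were kept whose mean Cy5 and Cy3 signals were at least 2 times background. Each gene was read from its brightest kept probe. Of the 72 combinations of comparison and gene among the 8 tested members with several kept probes, 2 had probes of opposite sign and 0 had both called. Groups were compared with limma 3.58.1 (R 4.3.3) and Benjamini-Hochberg adjustment over all probes at 0.05, in 24 female arrays, in 23 male arrays and, for sex and its interactions, in all 47. Slopes on Krt8 and Cd79b were fitted with group means. Correlations (Python 3.11.15, SciPy 1.17.1) carry two-sided permutation p-values. The fits were also run on simulated data with independent noise for each probe. That run lacks the correlation among the members and so does not test them as a block. RefSeq promoters of GRCm38.p6 were matched by symbol or synonym for 56 members, of which 49, not the same as the 49 tested, had an entry. The files' own positions are on mm8.

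The members, gene lists and comparisons were chosen with earlier results of these data known, and the lists support nothing on their own. Named with values were members past the adjusted threshold in a comparison (the 6 with the largest differences where more passed), otherwise up to 3 at an unadjusted p under 0.01, the 6 stage genes, Krt8 and Cd79b, and for each marker and sex the 3 members with the highest and 2 with the lowest r. Other lists are given as counts. Alternatives were other background corrections and scalings, other probe filters, slide, replicate number, Krt8 and Cd79b as terms, 1 fit of all arrays, the methods' t-test and each array left out. Mice are separate animals, which the paper describes as housed 3 to a cage. The cage of each mouse is not given, so cage could not be entered as a term. Every test therefore counts cage-mates as independent, and effects of cage and of group cannot be told apart. Of arrays, their number limits the precision.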

Additional observations from a re-analysis of the deposited data

Results flagged for a closer look

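In 15 of 96 groups of values, 1 array lay far from the others of its group (gap to the nearest array as a share of the range, past Dixon's critical value), where chance gives about 1 in 20. The genes move together and many were named for large differences, so the 96 groups are not independent. An unusual array is flagged in several genes, and the 15 do not count unusual arrays. The arrays are a few.

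In WT female BC, replicate 5 stood highest in Ccnb1 (2.68, next 0.67, share 0.649) and Tyms (1.49, share 0.736) and lowest in Cd79b (-2.57, share 0.778). In Bcmo1-null male BC, replicate 1 stood lowest in Cd79b (-3.75, next 0.45, share 0.837), Mki67 (-1.57, next -0.16, share 0.851), Mcm6 (-1.69, share 0.779), Pcna (-0.22, share 0.737), Birc5 (-1.85, share 0.712) and Cenpe (-1.16, share 0.693). In that group the array low in the lymphocyte marker was low in 5 of the proliferation genes tested this way.

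Bcmo1-null male control replicate 3 stood highest in Mki67 (0.66, share 0.830) and Mcm2 (0.59, share 0.709). Krt8 was lowest on Bcmo1-null female control replicate 1 (-2.93, next 0.84, share 0.919). In WT male BC, Cd79b was highest on replicate 3 (-1.79, share 0.742) and Top2a on replicate 1 (-0.30, share 0.790). Birc5 was lowest on WT female control replicate 1 (-1.64, share 0.698). No difference between diet effects passed for any member (0 of 49 in each of the 4 tests).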

How the results depend on the processing

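Of the counts, medians and correlations, most stayed within 1.5 times their value or within 1 SD; those that did not follow, and the cause was not tested. With Krt8 and Cd79b as covariates, genotype in males gave 0 genes on each diet (medians 0.18 and 0.035, Birc5 -0.036 on BC), the sex comparison 0 (median -0.78; Mcm6 -1.001, Mki67 -1.05, Birc5 -1.12, Stmn1 -1.39, Cenpf -0.94, Cdc20 -1.18), and the sex-by-diet comparison in WT 6 genes at the unadjusted threshold. With slide as a block, 10 genes passed for genotype in control males, 2 for sex, 2 (Mcm7 and Pcna) for sex by diet in WT and 4 (Fen1, Mcm3, Mcm5 and Mcm7) for Cd79b in males. All 47 arrays in 1 fit gave 15 for diet in WT females, 13 for genotype in control males and 9 in BC males. Median centring gave 0 for genotype in BC females, 13 in BC males, 22 at the unadjusted threshold for sex by diet in WT, 26 (43 unadjusted) for Krt8 in females, 11 for Krt8 in males and 15 for Cd79b in males. By the methods' t-test 14 were higher at the unadjusted threshold for diet in WT females, 0 passed for genotype in BC females and 15 in BC males. Cy5 alone gave 16 for genotype in BC males. For Krt8 in females, 1 passed (Mcm6) without the filter on dim probes or with another detection filter, and 6 with list medians as markers. For Cd79b in males, 41 passed without background correction and 40 on the deposited log10 ratio, which gave 1 (Pcna) in females. Median correlations centred on slides were 0.58 (Krt8, females), 0.34 (Krt8, males), -0.038 (Cd79b below the gap, females) and -0.042 (above it), and centred on groups 0.48 (Cd79b below the gap, females) and 0.22 (above it, males).

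Replicate numbers do not pair the mice: same-numbered deviations correlated between -0.52 and 0.61. With the replicate block 34 genes passed for genotype in control males, 22 in BC males, 42 for sex, 0 for diet in WT females, 15 for Cd79b in males and 1 for Cd79b in females (E2f1), and 38 were at the unadjusted threshold for Krt8 in females.

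Leaving out each array in turn, the number of genes passing ran from 0 to 7 for diet in WT females (7 without WT female BC replicate 6), from 1 to 2 for genotype in BC females, from 24 (without WT male control replicate 1) to 39 for genotype in control males, from 16 (without WT male BC replicate 5) to 34 in BC males, from 42 to 43 for sex and from 0 to 9 for sex by diet in WT. For the marker fits it ran from 0 to 4 for Krt8 in females, from 0 to 1 for Cd79b in females and from 7 (without Bcmo1-null male BC replicate 1) to 29 for Cd79b in males. At the unadjusted threshold it ran from 15 to 45 for diet in WT females and for sex by diet in WT, and from 7 to 46 for Krt8 in females.

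The number of arrays limits what a miss means, and 7 dim members could not be tested.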
